A study of Mus musculus with 8 samples.

Results

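The basic helix-loop-helix (bHLH) genes described here are Hand1, Hand2, Twist1, Twist2, Tcf21, Tcf15, Msc, Scx and Bhlhe40. They were taken as all probe sets (the groups of short probes that measure a transcript on the array) annotated to exactly 1 of these names, which gave 14 of 45037 probe sets. All 9 genes were represented, of 18193 genes measured. The rule used names and no levels, but the names were chosen with earlier results of these data known. Transcripts of the ductus arteriosus were compared with those of the aorta, on 4 arrays each. Every sample came from untreated fetal mice on gestation day 19, of the strain labelled CD88, called wild type in the labels. A sample pooled the vessel pieces of at most 10 pups of 1 pregnant female, so an array stands for a litter. The tests rest on how litters differ. The sample titles number replicates and name no litter, so whether ductus and aorta samples shared litters is not known here.

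bHLH transcription factors bind DNA as dimers, mostly at the sequence called the E-box. The tissue-restricted members pair with widely expressed E proteins, and Id proteins, which lack the DNA-binding region, hold E proteins away from them. Hand1 and Hand2 act in the heart, the outflow tract and neural crest derivatives, Twist1 and Twist2 in mesenchyme, and Tcf21 in epicardial and visceral mesenchyme. Tcf15 (paraxis) acts in somites, Scx (scleraxis) marks tendon and ligament progenitors, and Msc (musculin) is a repressor first described in muscle precursors. Bhlhe40 (also called Dec1) is a repressor of another bHLH class, tied to the circadian clock and to low oxygen.

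RefSeq promoter windows of the mouse build GRCm38.p6 were at hand for 4 of the 9 genes: Hand2, Twist1, Twist2 and Tcf21. The 250 bases before the annotated start are printed for Hand2 and Twist2, the members found lower in the ductus that have a window, with E-box letters (CANNTG) in capitals. The Hand2 stretch is chr8:57320733-57320982 and the Twist2 stretch chr1:91801211-91801460, both on the plus strand.
Hand2: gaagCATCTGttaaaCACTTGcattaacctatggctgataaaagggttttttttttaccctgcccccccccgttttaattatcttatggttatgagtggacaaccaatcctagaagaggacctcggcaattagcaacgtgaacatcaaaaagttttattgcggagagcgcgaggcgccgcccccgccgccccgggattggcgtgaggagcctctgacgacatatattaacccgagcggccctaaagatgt
Twist2: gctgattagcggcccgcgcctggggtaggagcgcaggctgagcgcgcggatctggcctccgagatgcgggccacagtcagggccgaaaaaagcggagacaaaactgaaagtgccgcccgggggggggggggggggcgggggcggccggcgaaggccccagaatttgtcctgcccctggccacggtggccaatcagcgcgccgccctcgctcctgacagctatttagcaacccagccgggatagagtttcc
The Hand2 stretch held 2 matches, CATCTG with its first base at position -246 and CACTTG at -235, counted back from the start. Those of Twist2, Twist1 and Tcf21 held 0. CANNTG, which as a pattern reads the same on both strands, occurred in 66.2% of 32851 promoter windows cut to the same length. CATCTG or its reverse complement CAGATG occurred in 14.4% of them, and every such match is also a CANNTG match. GC content was 49.2% for Hand2, 68.8% for Twist2, 62.4% for Twist1 and 52.4% for Tcf21, beside a median of 52.4% over all windows. These are letter matches in a short window and no binding was measured.

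Values are on the log2 scale, so a difference of 1 is 2-fold. The tables used hold no detection call. The first quartile of the probe sets was 2.74 to 2.86, depending on the array, and levels close to these values are not shown to be above background. Array medians were 4.36 to 4.42. Correlations over genes were 0.986 to 0.992 between arrays of a tissue and 0.979 to 0.987 between tissues. The vessel wall was checked with 10 contractile smooth muscle markers, whose mean lay at 8.72 to 9.34 on the aorta arrays and 9.84 to 10.38 on the ductus arrays. Limma called 5 of these 10, all with more signal in the ductus. In bulk tissue, fewer cells of a type and less RNA per cell cannot be told apart.

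Hand2 and Twist2 were lower in the ductus, Scx was higher, and the other 6 genes did not pass the test. The test was limma with Benjamini-Hochberg adjustment across the 18193 genes. An adjusted p under 0.05 counted as a call. Each gene was represented by its probe set with the highest mean. The 3 called members of 9 stand beside 3.86% of all genes called, with 1.8% called towards the ductus and 2.06% towards the aorta. A call with at least a 2-fold change was made for 2 of the 9 (Hand2 and Scx) and 2.13% of all genes. The median difference of the 9 genes, ductus minus aorta, was -0.15, beside -0.03 over all genes. Values of the tissues did not overlap in 4 of the 9 genes, as in 11.3% of all genes. With every probe set tested on its own, 3 of 14 were called, beside 2.46% of all probe sets, and 5 of 14 did not overlap, beside 9.25%.

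**Figure D1:**
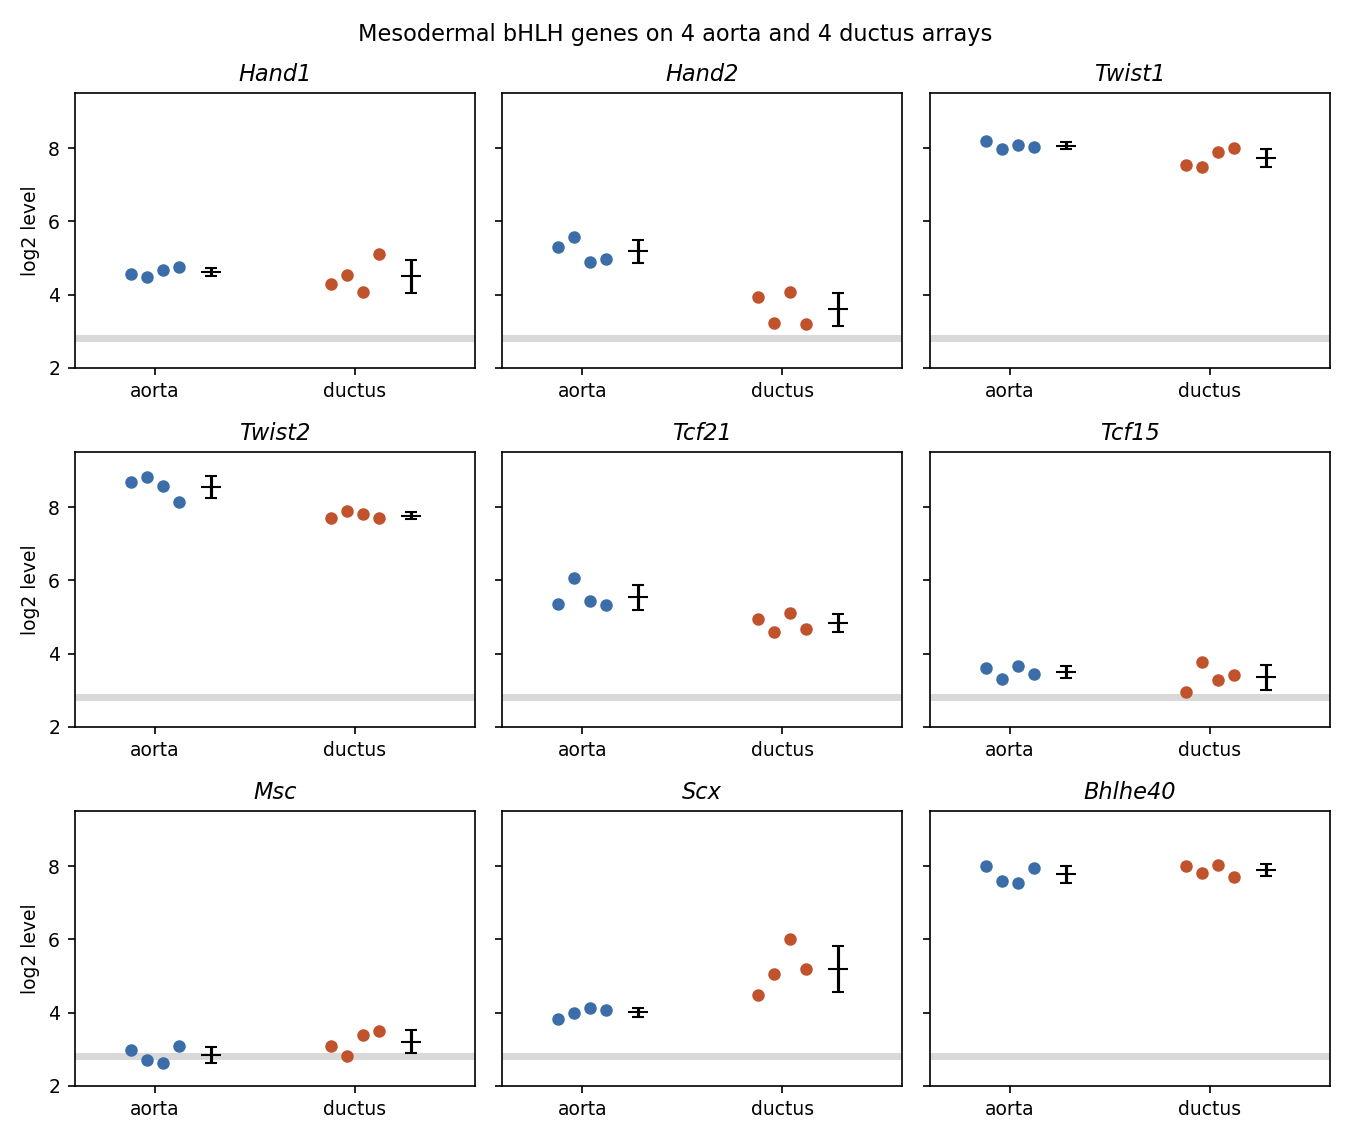
Log2 level (vertical axis) of the 9 bHLH genes on each aorta and ductus array (points, 4 per tissue), with mean and standard deviation at the side. The grey band spans the arrays' first quartiles, 2.74 to 2.86. Hand2, Twist2 and Tcf21 lie lower and Scx higher in all ductus arrays, and Msc lies near the band.

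Hand2, needed for growth of the right ventricle and for the outflow tract and branchial arches, had the largest difference of the 9. On the aorta arrays its levels were 5.30, 5.58, 4.89 and 4.97, in replicate order. On the ductus arrays they were 3.92, 3.23, 4.06 and 3.20. The lowest aorta array lay above the highest ductus array. The log2 difference was -1.58 ± 0.237 (SE, 95% interval -2.11 to -1.05), a 2.99-fold higher level in the aorta (limma adjusted p = 0.00574, n = 4 each). The call held on leaving out any 1 of the 8 arrays, with adjusted p from 0.00628 to 0.0201.

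The array carries 3 probe sets for Hand2, and all 3 were lower in the ductus. Those values are for 1436041_at. The second, 1422221_at, read 4.98, 4.57, 4.58 and 4.09 in the aorta and 3.04, 3.23, 3.80 and 3.62 in the ductus. It did not overlap between tissues either and was called among all probe sets (log2 -1.13 ± 0.219, 2.19-fold, limma adjusted p = 0.027). That call was lost without aorta replicate 1 (0.061), 2 (0.0822) or 3 (0.063), or ductus replicate 1 (0.0761), 2 (0.074) or 4 (0.0583). The third, 1443854_at, lay between 2.38 and 3.28 on all arrays, near the first quartiles, and did not pass (log2 -0.42, adjusted p = 0.33).

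Hand1, the close relative of Hand2 that acts in the left ventricle and in extraembryonic tissue, did not pass. Its levels were 4.57, 4.48, 4.66 and 4.76 in the aorta and 4.28, 4.54, 4.08 and 5.11 in the ductus. The ductus arrays lay on both sides of the aorta arrays. The difference was -0.12 (95% interval -0.57 to 0.34, limma adjusted p = 0.838), so a difference of the size seen for Hand2 lies outside the interval. The second Hand1 probe set, 1417525_at, read 2.65 to 3.05 in the aorta and 2.38 to 2.65 in the ductus, near the first quartiles (log2 -0.37, adjusted p = 0.205).

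Twist2, also called Dermo1, a factor of dermal and other mesenchyme, was the second member lower in the ductus. Aorta levels were 8.69, 8.82, 8.58 and 8.14, and ductus levels 7.70, 7.89, 7.81 and 7.70. The tissues did not overlap, and the ductus arrays lay closer together (SD 0.0935) than the aorta arrays (SD 0.293). The difference was -0.78 ± 0.15 (SE, 1.72-fold higher in the aorta, limma adjusted p = 0.0193). The call was lost without aorta replicate 1 (adjusted p = 0.0539) or 2 (0.0588) and without ductus replicate 1 (0.0617) or 4 (0.0625). The difference kept its sign in each of these, from -0.92 to -0.70 over all 8 omissions. In the limma fit over all probe sets the adjusted p was 0.0273. With 1 array left out, that call held only without aorta replicate 4 (0.00546), and the adjusted p was 0.0514 to 0.0872 otherwise.

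Twist1, which controls cranial neural crest mesenchyme and the cushions of the outflow tract, read 8.21, 7.97, 8.08 and 8.02 in the aorta. In the ductus it read 7.55, 7.50, 7.90 and 8.0. Ductus replicate 4 fell within the aorta range and the other ductus arrays lay below it. The difference of -0.33 (95% interval -0.64 to -0.03) had an unadjusted p of 0.0364 and did not pass the adjustment (limma adjusted p = 0.266). Each Twist gene was measured by 1 probe set.

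Tcf21, also known as capsulin, which directs epicardial cells towards fibroblasts and shapes lung and kidney mesenchyme, read 5.35, 6.06, 5.43 and 5.33 in the aorta and 4.94, 4.58, 5.11 and 4.67 in the ductus. The tissues did not overlap. The difference of -0.715 (95% interval -1.14 to -0.29, 1.64-fold) did not pass (limma adjusted p = 0.0778). Aorta replicate 2 stood above the other 3 aorta arrays, and without it the difference was -0.54 (adjusted p = 0.13). The second Tcf21 probe set, 1458887_at, lay at 2.12 to 2.48 on all arrays, below the first quartiles, and gave a difference of 0.02 (95% interval -0.24 to 0.29).

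Msc, the nearest relative of Tcf21, was measured at low signal. Aorta levels were 2.97, 2.71, 2.62 and 3.10, around the first quartiles. Ductus levels were 3.08, 2.82, 3.39 and 3.50. The ranges overlapped, and the difference of 0.35 (95% interval -0.04 to 0.74) did not pass (limma adjusted p = 0.365). Myod1 and Myf5, bHLH factors that commit cells to skeletal muscle, also lay low, at 2.99 to 4.15 and 2.00 to 3.47 over the 8 arrays.

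Scx, the tendon progenitor factor, was the only member called higher in the ductus. Its aorta levels were 3.83, 4.00, 4.13 and 4.07. Its ductus levels were 4.49, 5.06, 6.01 and 5.19. All ductus arrays lay above all aorta arrays, with ductus replicate 3 highest and the ductus spread (SD 0.628) wider than the aorta spread (SD 0.129). The difference was 1.18 ± 0.269 (SE, 2.26-fold, limma adjusted p = 0.0438).

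The Scx call lay close to the threshold. It was lost without aorta replicate 1 (adjusted p = 0.105), 2 (0.112), 3 (0.0732) or 4 (0.0936), and without ductus replicate 2 (0.084) or 4 (0.11). It held without ductus replicate 1 (0.015) and without replicate 3, the highest (log2 0.90, adjusted p = 0.0339). Among all probe sets the adjusted p of the same probe set, 1428983_at, was 0.056. The other Scx probe set, 1456291_x_at, lay at 2.45 to 3.05 on all arrays, near the first quartiles, and its difference of 0.27 did not pass (adjusted p = 0.472).

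Tcf15, the somite factor closest in sequence class to Scx, read 3.61, 3.30, 3.67 and 3.44 in the aorta and 2.94, 3.78, 3.28 and 3.40 in the ductus. The ductus arrays spanned the aorta arrays. The difference of -0.15 (95% interval -0.55 to 0.24) did not pass (limma adjusted p = 0.743).

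Bhlhe40 read 8.0, 7.61, 7.56 and 7.96 in the aorta and 8.01, 7.82, 8.04 and 7.70 in the ductus, and the ranges overlapped. The difference was 0.11 (95% interval -0.21 to 0.43, limma adjusted p = 0.776), an interval that leaves room for less than a 2-fold change either way. Bhlhe41 (Dec2), its close relative, lay between 2.94 and 3.43 on all arrays, little above the first quartiles, with a difference of 0.11 (adjusted p = 0.728).

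**Figure D2:**
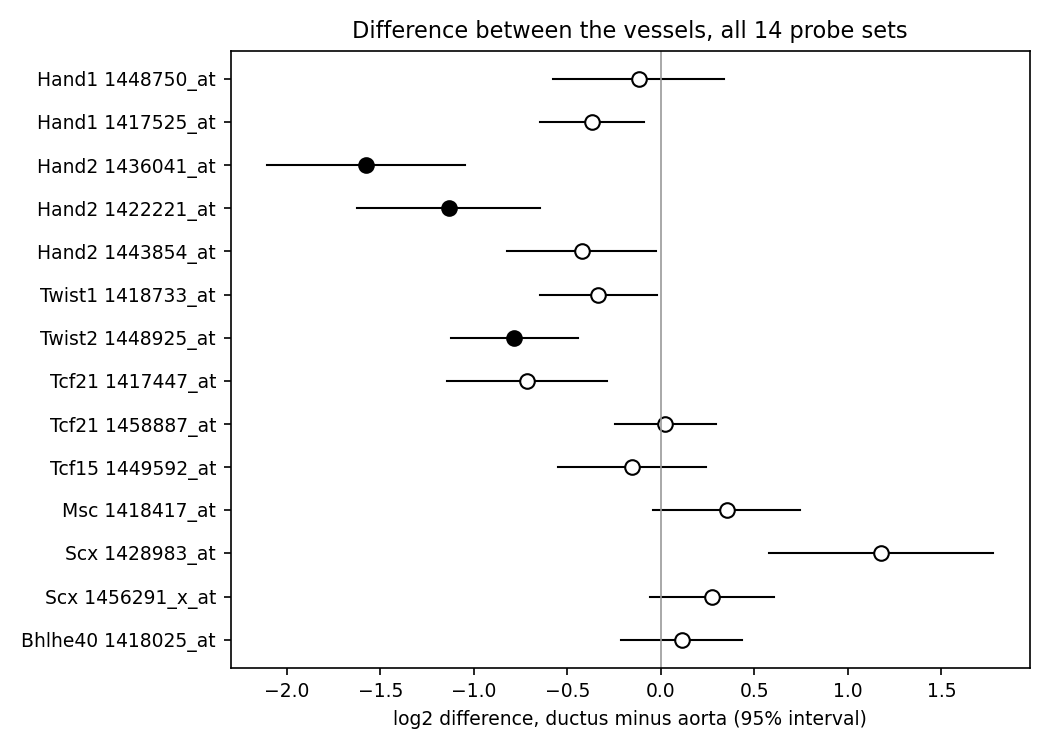
Log2 difference, ductus minus aorta (horizontal axis), of the 14 probe sets of the 9 genes, with 95% intervals from the fit over all probe sets. Filled points are called at an adjusted p under 0.05: 2 of Hand2 and that of Twist2. The upper Scx probe set, at 1.18, has an adjusted p of 0.056 in this fit and is open.

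In 3 of 5 pairs of related genes the measured signals changed unequally. For these 5 pairs, the within-array log2 difference of the pair was compared between the tissues with an exact permutation test (two-sided, 4 against 4, smallest possible p 0.0286, adjusted over the 5 pairs). With 5 pairs, an adjusted p under 0.05 needs at least 3 pairs at this smallest p. The 3 passing pairs were each at it, so each pass depends on the others. Such a difference shows unequal change and not which gene is more abundant. Hand1 minus Hand2 was -0.73, -1.10, -0.22 and -0.21 on the aorta arrays and 0.36, 1.30, 0.02 and 1.91 on the ductus arrays, a shift of 1.46 (exact adjusted p = 0.0476). Scx minus Tcf15 shifted by 1.33, from 0.22, 0.70, 0.46 and 0.63 to 1.55, 1.28, 2.73 and 1.79 (exact adjusted p = 0.0476). Tcf21 minus Msc shifted by -1.07, with no overlap (exact adjusted p = 0.0476), although neither gene was called alone. Msc lay around the first quartiles in the aorta, where its signal may be background, so the size of that shift is uncertain.

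In the Twist and Bhlhe pairs no unequal change was shown. Twist1 minus Twist2 went from -0.48, -0.84, -0.50 and -0.12 in the aorta to -0.14, -0.39, 0.09 and 0.30 in the ductus. The shift of 0.45 did not pass (exact adjusted p = 0.107). Bhlhe40 minus Bhlhe41 differed by -0.0033 between the tissue means, with a raw exact p of 1. With the mean over a gene's probe sets in place of the highest, the shifts of the 3 passing pairs were 0.80, 0.88 and -0.70 in the order given, and none passed (exact adjusted p of 0.0952, 0.0714 and 0.0714).

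**Figure D3:**
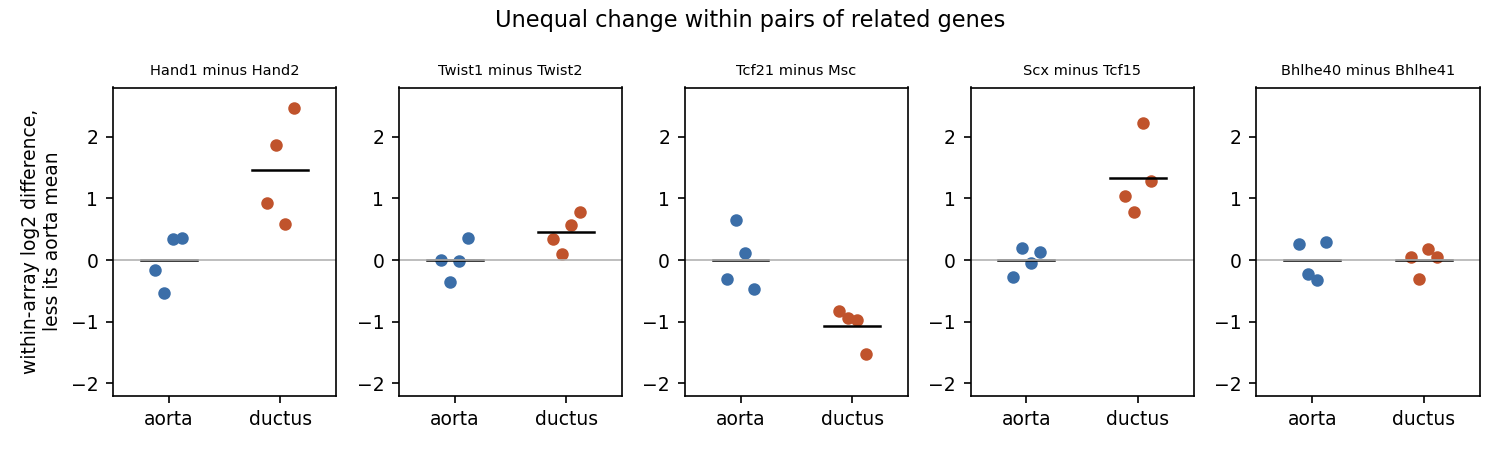
Within-array log2 difference between 2 related genes, less its mean over the aorta arrays (vertical axis), for each aorta and ductus array (points, with the mean as a line). Ductus and aorta points separate for Hand1 minus Hand2, Tcf21 minus Msc and Scx minus Tcf15, and overlap for the other pairs.

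Among the dimer partners and their inhibitors, Id2 was higher in the ductus. Of 7 genes measured (the E proteins Tcf3, Tcf4 and Tcf12 and the inhibitors Id1 to Id4), 1 was called, with a median difference of 0.11 over the list. Id2 read 9.97, 9.96, 9.96 and 9.87 in the aorta and 10.71, 10.65, 10.70 and 10.60 in the ductus. The tissues stood apart by far more than the spread within either. The difference was 0.73 ± 0.0898 (SE, 1.66-fold, limma adjusted p = 0.00191), and it was called without any 1 array, with adjusted p up to 0.00943.

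Id4 read 9.97 to 10.19 in the aorta and 10.28 to 10.60 in the ductus, without overlap, and did not pass (log2 0.35, limma adjusted p = 0.128). It was called with the mean over its probe sets (log2 0.47, 0.0193), with the most variable probe set (log2 0.80, 0.0235) and with a trend and robust prior (0.0498). Id1 (log2 -0.02) and Id3 (log2 0.11) had adjusted p of 0.966 and 0.791. The sign of Id1 turned with array weights and on leaving out some arrays. Tcf4 (E2-2) read 10.55 to 10.95 in the aorta and 10.12 to 10.57 in the ductus (log2 -0.31 ± 0.137, adjusted p = 0.314). Tcf12 (HEB) differed by -0.02 (95% interval -0.28 to 0.25), with a sign that depended on the probe set, and Tcf3 (E2A) by 0.20 (adjusted p = 0.591), also with a sign that depended on the probe set.

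The other tissue-restricted bHLH factors had no called member. Limma called 0 of 34, beside 3.86% of all genes. The list had a median difference of -0.07. An unadjusted p under 0.05 was found for 4 of the 34, beside 16.1% of all genes. Their mean lay at 3.16 to 3.27 on the aorta arrays and 3.08 to 3.29 on the ductus arrays. Myog, the differentiation factor of skeletal muscle, had the largest difference and read 3.06, 3.44, 6.65 and 4.41 in the ductus against 2.76 to 3.41 in the aorta (adjusted p = 0.346). Tcf24 differed by -0.63 (adjusted p = 0.0968), and passed without ductus replicate 1 (0.0414).

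Of 17 genes of tendon, the tissue Scx is known for, 4 were called higher in the ductus and 0 lower. Called or not, 11 had a higher mean in the ductus and 6 a lower one (median difference 0.25). Mkx, a homeobox factor of tendon cells, read 5.04, 4.35, 3.89 and 4.18 in the aorta and 7.23, 7.39, 7.38 and 7.68 in the ductus (8.29-fold, limma adjusted p = 0.000105). Tnmd (tenomodulin), a late tendon marker, read 3.82, 5.05, 5.66 and 4.82 against 7.28, 7.08, 7.36 and 7.64 (5.67-fold, adjusted p = 0.00272). Both stood clear of overlap and were called without any 1 array. Thbs4, a tendon matrix protein, was 1.78-fold higher (adjusted p = 0.0166). Thbs4 was not called without aorta replicate 2 (0.059) or ductus replicate 1 (0.0567) or 4 (0.0553). Egr1 was 1.32-fold higher (adjusted p = 0.0477) and passed only with all 8 arrays (0.0722 to 0.128 without 1), and not with arrays centred on their medians (0.0596). The collagen Col1a1 read 12.42 to 12.65 in the aorta and 12.33 to 12.54 in the ductus (adjusted p = 0.727).

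Genes of mesenchymal transition and neural crest mesenchyme, a setting of Twist1, Twist2 and Hand2, were called in 1 direction. Of 25 measured, 7 were called higher in the ductus (Tfap2b, Sox9, Fgfr2, Dlx2, Prrx1, Prrx2 and Fn1) and 0 lower. Among all 25, the ductus mean was higher for 20 and lower for 5 (median difference 0.23). Fgfr2, a fibroblast growth factor receptor, was 3.05-fold higher (10.77 to 11.05 in the ductus against 8.99 to 9.54, adjusted p = 0.000244). Sox9, a factor of cartilage and tendon progenitors, was 3.84-fold higher, with adjusted p = 0.00016. Hand2 and Twist2 thus had the opposite sign to each called gene of this list.

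Cardiac and outflow tract genes, partners and neighbours of Hand2 in heart development, were called in the other direction. Of 22 measured, 0 were called higher in the ductus and 4 lower. Among all 22, the ductus mean was higher for 6 and lower for 16 (median difference -0.19). The GATA factor Gata4 read 6.71, 5.97, 4.83 and 5.67 in the aorta and 3.60, 3.80, 4.14 and 4.02 in the ductus (3.74-fold, adjusted p = 0.013). Gata5 exceeded its ductus level 2.16-fold in the aorta (adjusted p = 0.00741). Tbx20, a cardiac T-box factor, was 4.60-fold higher there, from 8.46 to 9.22 against 5.93 to 6.93. The cardiac troponin gene Tnnt2 had a 2.42-fold higher aortic level (adjusted p = 0.035), a call lost on leaving out any 1 of 6 arrays (all 4 aorta replicates and ductus replicates 2 and 4, adjusted p up to 0.102).

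**Figure D4:**
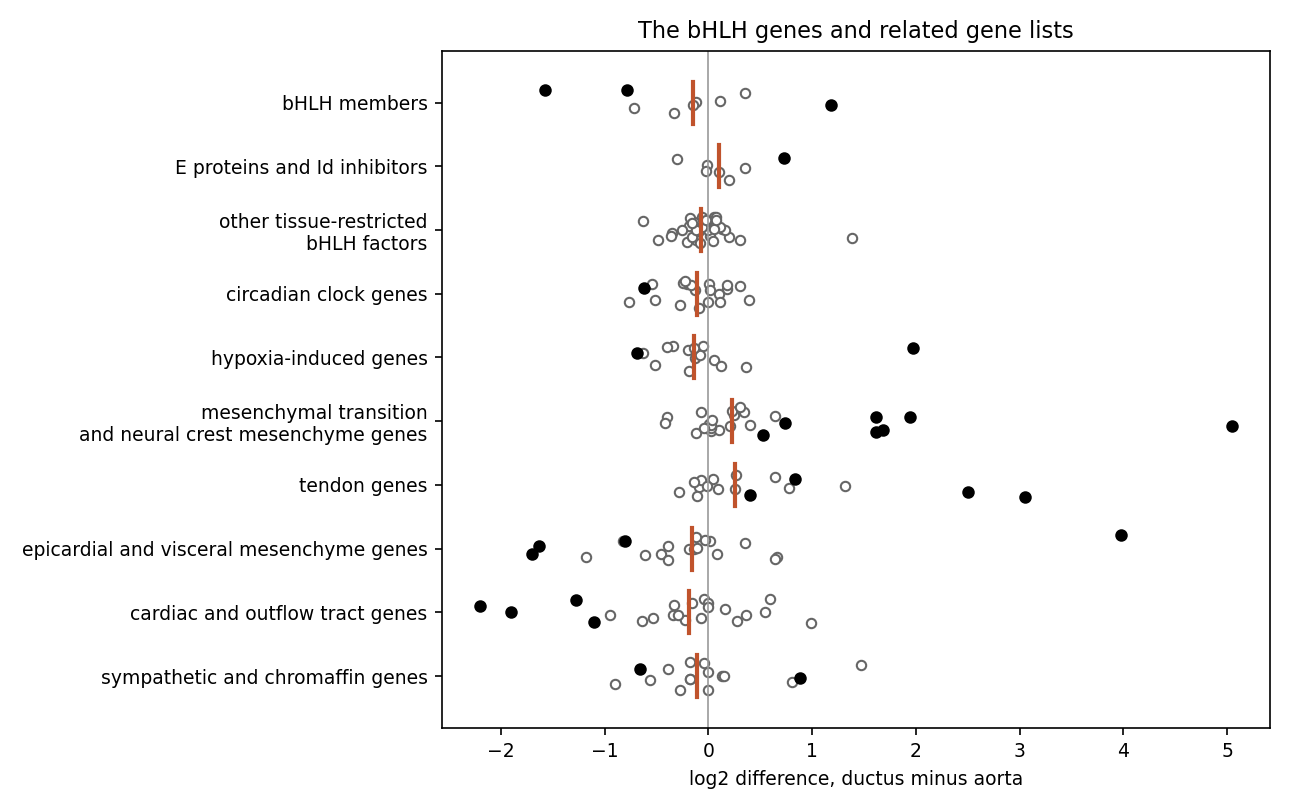
Log2 difference, ductus minus aorta (horizontal axis), of the 9 bHLH genes and of 9 related gene lists (rows). Each point is a gene, filled where called at an adjusted p under 0.05, and the vertical bar is the median of the list. Called tendon genes and called genes of mesenchymal transition and neural crest mesenchyme lie to the right, and called cardiac genes to the left. Called epicardial and visceral mesenchyme genes lie on both sides.

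Of 20 epicardial and visceral mesenchyme genes, the setting of Tcf21, 1 was called higher in the ductus and 3 lower. Called or not, 6 had a higher mean there and 14 a lower one (median -0.16). The forkhead factor Foxf1, which acts in lung and gut mesenchyme, was 15.7-fold higher in the ductus. Aldh1a2, the retinoic acid enzyme of the epicardium, had a 3.25-fold higher aortic level (adjusted p = 0.0406), as had Bnc1 (3.11-fold, 0.0383) and Podxl (1.75-fold, 0.0284). Each of these 3 lost its call on leaving out any 1 of 6 arrays, with adjusted p up to 0.119. For Aldh1a2 these were aorta replicates 1, 2 and 4 and ductus replicates 2, 3 and 4. For Bnc1 they were aorta replicates 2 and 4 and each ductus replicate, and for Podxl aorta replicates 1, 2 and 4 and ductus replicates 1, 2 and 4. Podxl, as the mean over probe sets, differed by -0.37 (adjusted p = 0.19), against -0.80 with its brightest probe set.

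In the sympathetic and chromaffin list, where Hand2 is needed for noradrenergic cells, 1 of 16 was called higher in the ductus and 1 lower. Over all genes, 1.8% and 2.06% were called in these directions. Of the 16, called or not, 5 had a higher mean in the ductus and 11 a lower one (median -0.11). Gata2 had a 1.58-fold higher aortic level (adjusted p = 0.0313) and the receptor Ret 1.84-fold higher in the ductus (0.0404). Neither call was stable to leaving out single arrays: Gata2 kept it only without aorta replicate 3, and Ret only without aorta replicate 3 or 4 or ductus replicate 1. With the mean over probe sets Ret differed by 0.41 and was not called (0.123). Of the noradrenergic genes in the list, Th lay at 2.48 to 2.88, Dbh at 2.31 to 3.19 and Phox2a at 2.28 to 2.72, near the first quartiles. The monoamine transporter Slc18a2 (3.69 to 5.26) and the decarboxylase Ddc (6.03 to 6.83) lay above them, and neither passed the test.

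Clock and low-oxygen genes were examined beside Bhlhe40. Of 20 clock genes, 8 had a higher mean in the ductus and 12 a lower one (median -0.11). Limma called 0 higher and 1 lower, beside 1.8% and 2.06% of all genes. The called clock gene was Tef, a clock output factor, which read 8.66 to 8.92 in the aorta and 7.99 to 8.32 in the ductus (1.54-fold, adjusted p = 0.0142). Tef was not called without aorta replicate 2 (0.0503) or as the mean of its probe sets (log2 -0.23, 0.327). Of 15 hypoxia-induced genes, 4 had a higher mean in the ductus and 11 a lower one (median -0.14). Limma called 1 higher and 1 lower, beside the same shares of all genes. The oxygen-sensing prolyl hydroxylase Egln3 was 3.91-fold higher in the ductus, and Ndrg1 had a 1.61-fold higher aortic level (adjusted p = 0.0167). The Ndrg1 call was lost without aorta replicate 2 (0.0585) or ductus replicate 2 (0.0509) or 4 (0.0553).

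Markers of other cell types also differed between the tissues. Over all genes, 1.8% were called higher and 2.06% lower in the ductus. All 12 mesothelial markers (Bnc1 and Wt1 are also in the epicardial list) had lower means in the ductus, and 9 were called. Their mean was 7.61 to 9.01 on the aorta arrays and 6.39 to 7.02 on the ductus arrays. Endothelial markers had 3 of 12 called, all lower in the ductus (Tek, Cldn5 and Pecam1), with means of 7.71 to 8.10 and 7.28 to 7.52. Called or not, 11 of the 12 had a lower mean in the ductus and 1 a higher one (median difference -0.65). An unadjusted p under 0.05 was found for 11 of the 12, beside 16.1% of all genes. Pecam1 was not called without aorta replicate 2 or ductus replicate 1, 2 or 3 (adjusted p up to 0.0735), nor Cldn5 without ductus replicate 4 (0.0522). Adventitial fibroblast markers had 1 of 11 called, Fbln1, lower in the ductus, with means of 9.79 to 10.02 and 9.45 to 9.59. Of the 11, 9 had a lower mean in the ductus and 2 a higher one. The lowest value on any array was 1.74, so no marker could read 0, and these levels do not show which cell types were present. The differences of these lists lay in the direction of those of Hand2 and Twist2, and their part in them was not tested.

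Skeletal muscle genes lay in the direction of Scx: 12 of 14 had a higher mean in the ductus and 2 a lower one (median difference 0.64). Their mean was 3.50 to 3.93 on the aorta arrays and 3.96, 3.69, 5.51 and 3.79 on the ductus arrays. Limma called 0 of 14, with 2 at an unadjusted p under 0.05, beside 16.1% of all genes. Ductus replicate 3, where Scx was highest, was the array with the highest skeletal muscle mean. Tnnt3, the fast troponin gene, did not overlap between the tissues and just missed the threshold (log2 1.48, limma adjusted p = 0.0522). It passed under 8 other settings, among them centring on the array medians (0.0495) and leaving out ductus replicate 3 (log2 1.08, 0.014). Scx and Tnnt3 were thus both called without that array, and the part of skeletal muscle in the Scx difference was not tested. Cartilage markers had 2 of 10 called, Acan and Hapln1, both lower in the ductus, with means of 4.58 to 4.76 and 4.25 to 4.44. Of the remaining markers, 2 of 7 Schwann cell (Cdh19 and S100b) and 2 of 10 airway epithelial markers (Scgb1a1 and Scgb3a2) were called towards the ductus. Limma called 0 of 11 thymocyte, 0 of 8 adipocyte, 0 of 8 macrophage and 0 of 5 erythroid markers (0, 0, 2 and 0 at an unadjusted p under 0.05). Yet all 11 thymocyte markers had a higher mean in the ductus (median difference 1.06). Their mean varied widely within a tissue, from 3.50 to 6.36 on the aorta arrays and 3.84 to 7.17 on the ductus arrays. The adipocyte mean also varied, from 4.78 to 7.81 and from 5.44 to 6.82. The part of such tissue in the differences of the members was not tested. S100b kept its call only without aorta replicate 4 (adjusted p up to 0.103 otherwise), and Scgb3a2 only without aorta replicate 4 or ductus replicate 3 (up to 0.0757).

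**Figure D5:**
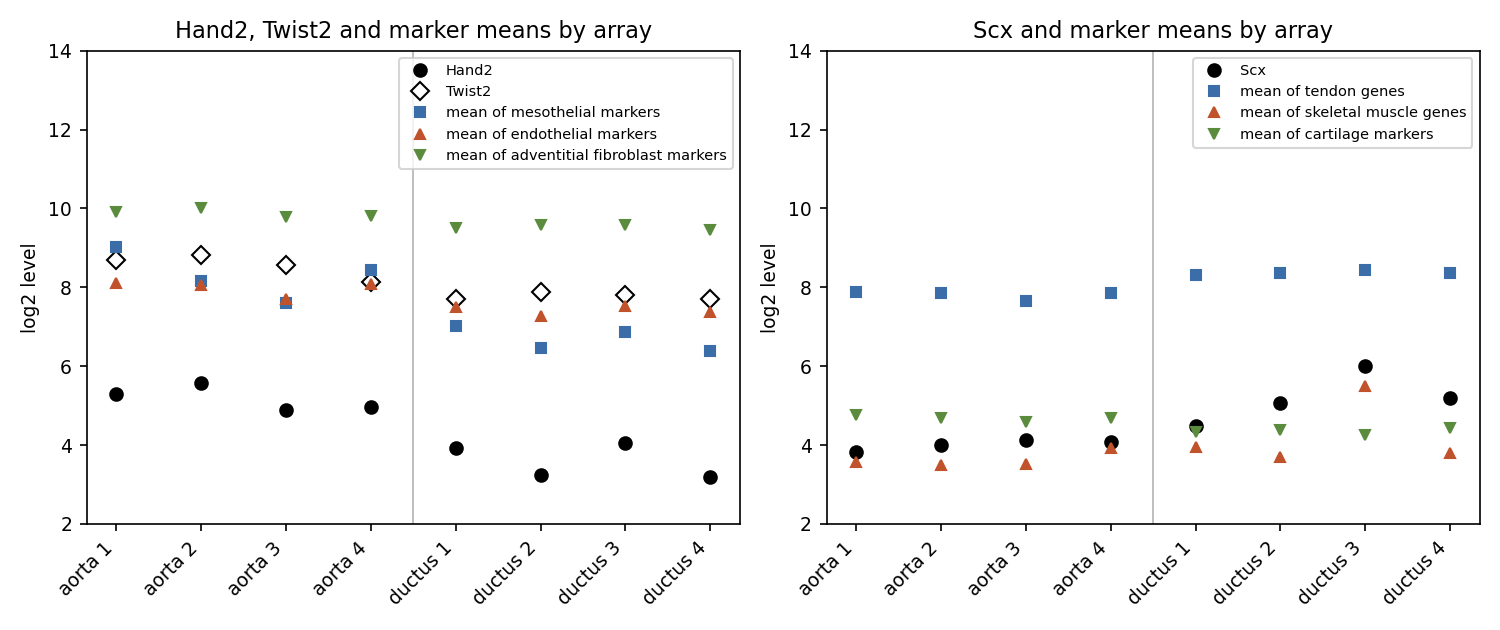
Log2 levels (vertical axis) of Hand2 and Twist2 (left) and Scx (right) on the 8 arrays, beside means of marker lists. The mesothelial mean is 7.61 to 9.01 in the aorta and 6.39 to 7.02 in the ductus, and the skeletal muscle mean peaks at 5.51 on ductus replicate 3, where Scx reads 6.01.

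The genes with the most similar values over the 8 arrays were found for the 3 called members, as the smallest root mean square difference after centring each gene on its own mean. This is a description over 8 arrays of 2 tissues. The choice itself favours genes that share the member's tissue difference, so their directions and calls are no separate result. For Hand2 they were Cytl1 (0.221), Ramp1 (0.247), F11r (0.259) and Cldn5 (0.267), all lower in the ductus. Ramp1 is an accessory protein of the calcitonin-family receptors, and F11r and Cldn5 are cell junction proteins. For Scx they were Hoxb4 (0.244), Fez1 (0.274), Srrm4 (0.289) and Inhba (0.31), all higher in the ductus. For Twist2 they were Cpxm1 (0.0978), Hdac5 (0.123), Slc31a2 (0.125) and Map3k10 (0.136), all lower in the ductus. Fez1 (limma adjusted p = 0.0501) and Hdac5 (0.0572) did not pass the test, and the other 10 did. Fez1 passed under 6 other settings and Hdac5 also under 6. Map3k10 lost its call on each single omission other than aorta replicate 4 and ductus replicate 2 (adjusted p up to 0.0991), and with the mean over probe sets (log2 -0.30, 0.109). Slc31a2 lost it without aorta replicate 2 or ductus replicate 2 or 4, F11r without aorta or ductus replicate 2, and Cldn5 without ductus replicate 4. With the mean over probe sets, Srrm4 went from 0.90 to 0.28 (adjusted p = 0.15) and Inhba from 1.16 to 0.53 (0.0543), and neither was called. Cytl1, the gene nearest to Hand2, read 9.18 to 9.77 in the aorta and 7.62 to 8.14 in the ductus.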

How the data were processed

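Total RNA of 8 pools (4 ductus, 4 aorta), each from a single litter, was measured on Affymetrix mouse arrays. Whether a ductus and an aorta pool shared a litter is not known here. The deposited values are log2 probe set levels. Partek 6.6 and RMA (background correction, quantile normalization, probe set summary) are listed per the submitters' processing notes, without order or settings. RMA can compress folds near background.

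Of 45101 probe sets, 64 controls were left out, 9160 had no listed gene, 932 several and 34945 exactly 1. Symbols were updated by gene ID to the RefSeq table of GRCm38.p6 (34741 matched). Each gene was represented by its probe set with the highest mean, with no low-value filter. Differences were tested in R 4.3.3 by the lmFit and eBayes functions of limma 3.58.1 (two-sided, no covariate, all 8 arrays) over all genes and, separately, all probe sets, and checked on simulated data. Pairs of related genes were compared by exact permutation over arrays.

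Named beside the 9 members were Bhlhe41, the E proteins and Id genes, up to 4 called genes per list with the smallest p (otherwise up to 2 with the largest difference), and the 4 most similar genes per called member. Not every gene so chosen is printed. Genes named as background levels (Myod1, Myf5, Col1a1, Th, Dbh, Phox2a, Slc18a2, Ddc) and Prrx1, Prrx2 and Fn1 were chosen after their values were seen. Members and lists were chosen with earlier results of these data known. Of the list names, 1 was matched through an older symbol and 16 were not analysed here. Alternatives covered scaling, low-value filter, probe set choice, variance prior, array weights, threshold, a replicate block and leaving out each array. Same-numbered samples did not deviate together (correlations of -0.227 to -0.0676), which does not settle whether samples shared litters.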

Additional observations from a re-analysis of the deposited data

Results flagged for a closer look

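In 178 groups of 4 arrays (the members' probe sets, the other named genes and the gene pairs, in each tissue), 9 had a lone array set apart from the other 3, by Dixon's test at the 95% level. Chance gives about 1 in 20, or 8.9 groups, so the number is near what chance gives.

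Among the bHLH genes, Tcf21 (1417447_at) on aorta replicate 2 read 6.06 against 5.33 to 5.43 on the other aorta arrays. Among their partners, Id2 on aorta replicate 4 read 9.87 against 9.96 to 9.97.

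Ductus replicate 3 stood apart in 3 genes. The embryonic myosin gene Myh3 read 7.77 there against 3.00 to 3.67, and the fast troponin gene Tnnt3 read 7.71 against 6.06 to 6.19. Tbx20 read 5.93 against 6.83 to 6.93. Aorta replicate 4 was high in Tnnt3 (5.50 against 4.82 to 4.93) and in the airway gene Scgb1a1 (3.96 against 3.05 to 3.13). Aorta replicate 1 was high in Gata5 (4.75 against 4.21 to 4.29) and in the endothelial gene Pecam1 (8.72 against 8.27 to 8.35).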

How the results depend on the processing

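Of 141 checks of the 9 member genes under other settings, 129 kept their direction and their side of the threshold. Hand2, Twist2 and Scx were all called with arrays centred on their medians, with the mean over probe sets, with the most variable probe set (largest interquartile range), with a trend and robust prior, with array weights and with the replicate block. With quantile normalization repeated, Tcf21 was called as well (adjusted p = 0.0491). Without the lowest 40% of means, Hand2, whose mean falls in that part, was not tested. At an adjusted p under 0.01, 1 member was called, Hand2. Leaving out each array in turn gave 1 to 3 called members and 1 to 3 called member probe sets, with 1 gene called without aorta replicate 1 or 2 or ductus replicate 4 (Hand2 each time).

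The replicate block is a value only, since whether the replicate numbers pair the samples is not known. With this block, 1 member probe set was called, and the calls among all genes went from 702 to 403. Of 176 genes in the related lists, 25 were called, beside 3.86% of all genes. With an array left out 16 to 29 list genes were called, lowest without aorta replicate 2 or ductus replicate 4.

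For the gene pairs, the mean over probe sets gave shifts of 0.80 for Hand1 and Hand2 (exact adjusted p = 0.0952), -0.70 for Tcf21 and Msc and 0.88 for Scx and Tcf15 (both 0.0714). The exact sign-flip test over replicate numbers (a replicate block) cannot go below p = 0.125 and left the shifts at 1.46, -1.07 and 1.33. With an array left out, an exact permutation test of 3 against 4 cannot go below p = 0.0571. The shifts were then 1.12 to 1.75, -1.22 to -0.85 and 1.03 to 1.52. Bhlhe40 and Bhlhe41 turned sign with the mean over probe sets (0.094) and with the most variable probe set (0.19), and ranged from -0.11 to 0.10 without single arrays.

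Other sign changes were all of genes not called. With the most variable probe set, Bhlhe41 was at -0.080, Tcf3 at -0.070 and Tcf12 at 0.31. Tcf12 was at 0.069 with the mean over probe sets and Id1 at 0.025 with array weights. Without single arrays, Hand1 ranged from -0.32 to 0.022, Tcf12 from -0.087 to 0.047, Id1 from -0.100 to 0.056 and Cidea from -1.01 to 0.49. The causes were not tested. Low signal limits Msc, Tcf15, Bhlhe41 and the dimmer probe sets of Hand1, Hand2, Tcf21 and Scx. The brightest probe sets of Hand2 in the ductus (3.20 to 4.06) and of Scx in the aorta (3.83 to 4.13) also lay below the array medians. The folds of Hand2 and Scx thus have a low side.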

Other observations

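Probe sets of the dimer partners disagreed in part, and these values were chosen after they were seen. Of 6 Tcf4 probe sets, all 6 were lower in the ductus, by -0.01 to -0.74, and 1 was called among all probe sets. That probe set, 1424089_a_at, read 6.81, 6.81, 6.70 and 6.85 in the aorta and 5.79, 6.24, 6.00 and 6.21 in the ductus (log2 -0.74 ± 0.126, limma adjusted p = 0.0147). The brightest Tcf4 probe set differed by -0.31 and did not pass. All 3 Id4 probe sets were higher in the ductus, by 0.25 to 0.80, and 1423259_at was called (8.44, 8.72, 8.82 and 8.21 in the aorta against 9.52, 9.15, 9.43 and 9.27, limma adjusted p = 0.0293). All 3 Id2 probe sets were higher by 0.73 to 0.96 and 2 were called. The third, 1453596_at, read 2.87 to 3.30 in the aorta and 3.53 to 4.72 in the ductus (adjusted p = 0.12). Of the inhibitors with several probe sets, Id2 and Id4 thus had every probe set higher in the ductus.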
